A study of Rattus norvegicus with 6 samples.

Results

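The BCL2 family of apoptosis regulators was followed in the endosalpinx (the oviduct's mucosa) 3 h after mating in the rat. The 10 members examined were Bcl2, Bcl2l1, Mcl1, Bax, Bak1, Bcl2l11, Bbc3, Pmaip1, Bid and Bad. They were taken by gene symbol from probe sets annotated with exactly 1 gene, and the probe set of highest mean over all arrays stood for each gene. All 10 were measured, out of 14506 genes in all. The rule uses symbols and mean signal, not the difference between the groups, and the list of members was drawn up with earlier results of these data known.

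RNA came from 6 adult Sprague-Dawley females, with 1 array per animal and 3 animals per group. Mated females had joined fertile males in pro-estrus, at 2200 h, showed sperm or a plug 30 min later, and stayed with the male until they were killed. Unmated females were kept isolated. All were killed at 0130 h of estrus, and the labels record uterine edema in the unmated and abundant semen in the uterus of the mated animals. Company of a male and the check for sperm are described only for the mated group, so their effects cannot be told apart from that of mating. The comparison asks how mating alters transcripts of the oviduct lining.

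Proteins of this family decide whether the outer membrane of mitochondria is opened, which releases cytochrome c and starts the caspase cascade. The effectors Bax and Bak1 form the pores, antiapoptotic members such as Bcl2, Bcl2l1 and Mcl1 hold them in check, and BH3-only members sense stress and either neutralise the antiapoptotic proteins or activate the effectors. Much of this control acts on the proteins themselves, by binding, phosphorylation, cleavage and degradation, which an array does not measure.

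None of the 10 members passed the threshold between mated and unmated rats (0 of 10 at adjusted p under 0.05 by limma, against 0% of all 14506 genes). The lowest adjusted p among them was adjusted p = 0.984, which was also the lowest over all genes. At an unadjusted p under 0.05 by limma 1 member remained, Pmaip1, against 4.57% of all genes. With the arrays centred on their medians Bid was a second, and after a second quantile normalization there was none. The BH3-only gene Pmaip1 lay at a log2 signal of 6.91 ± 0.14 in the unmated and 7.30 ± 0.34 in the mated group (mean ± SD, n = 3 each), a log2 fold change of 0.40. The antiapoptotic gene with the largest difference was Bcl2, at 0.14, and the effectors Bax and Bak1 differed by -0.01 and -0.05. All values are log2 signals as deposited, where a difference of 1 is a doubling.

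The intervals bound differences in array signal, not changes of transcript, which RMA compresses for dim probe sets. The 95% confidence intervals of 9 of the 10 members included no difference. The interval of Pmaip1 ran from 1.02-fold to 1.70-fold. Among the other 9 members, the highest upper limit was 1.30-fold, for Bcl2, and the lowest lower limit was 0.816-fold, for Bcl2l11. A signal difference of Bax beyond 0.892-fold or 1.11-fold lay outside its interval. These intervals are not adjusted for the number of genes.

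**Figure D1:**
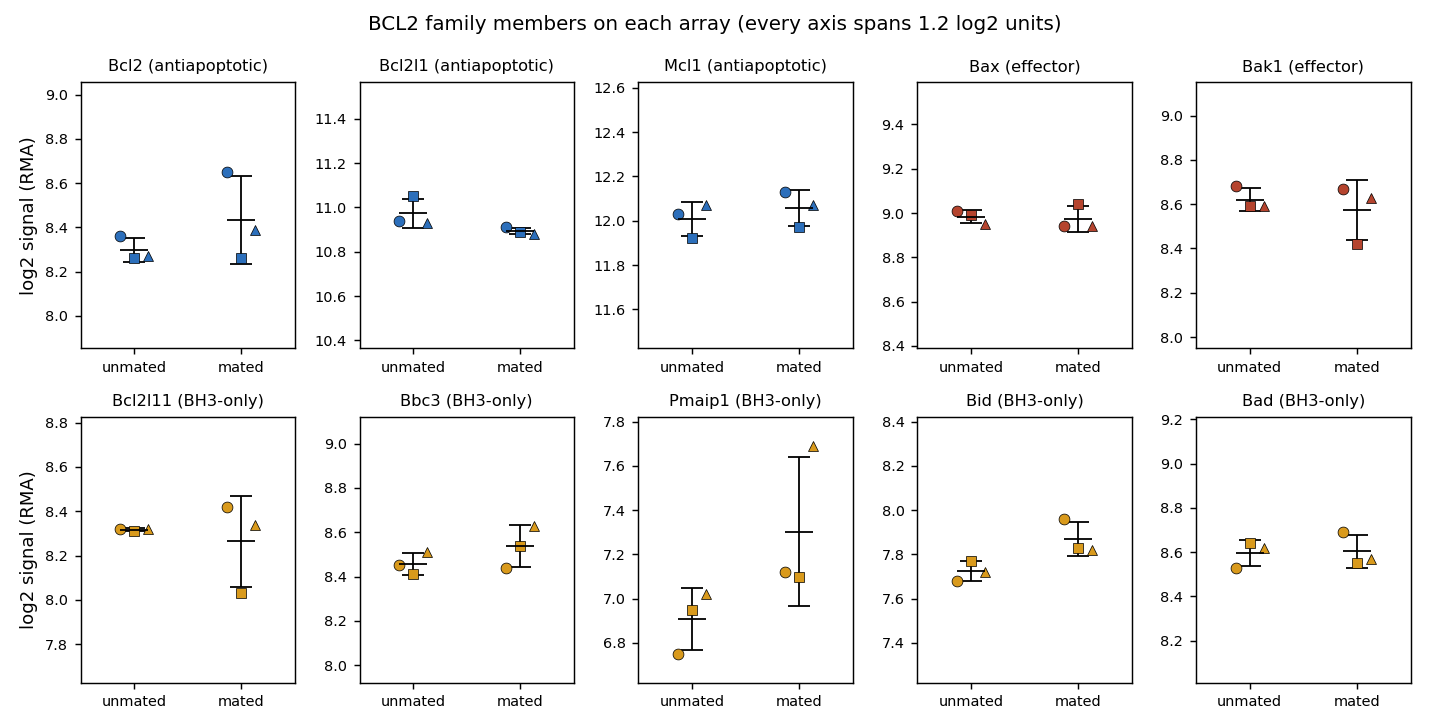
Log2 signal of the 10 members in unmated and mated rats, with 1 panel per gene and all vertical axes spanning the same distance. Circles, squares and triangles are replicates 1, 2 and 3, which are different animals in each group, and bars give the mean and SD of 3 arrays. Pmaip1 reached 7.69 on mated replicate 3, whereas the 6 values of Bax spanned 0.10.

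Among the antiapoptotic members, Bcl2, the founding member of the family, was at 8.36, 8.26 and 8.27 in unmated and at 8.65, 8.26 and 8.39 in mated rats. The mated value of replicate 1 was the highest and that of replicate 2 tied with the lowest unmated value, so the groups overlapped. The log2 fold change was 0.14 (95% confidence interval -0.10 to 0.38), and without mated replicate 1 it was 0.03.

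Bcl2l1 encodes Bcl-xL and its shorter proapoptotic splice form Bcl-xS, which a whole-gene probe set does not separate. Its kept probe set gave 10.94, 11.05 and 10.93 in unmated and 10.91, 10.89 and 10.88 in mated rats. All mated values were below all unmated values, by a gap of 0.02. The log2 fold change was -0.08 (-0.24 to 0.08), and without unmated replicate 2, the highest value, it was -0.04. A second probe set gave 9.97, 10.13 and 9.97 in unmated and 9.96, 9.92 and 9.89 in mated rats, with a log2 fold change of -0.10 (-0.28 to 0.08). The groups were again apart and again lower in mated rats. The kept probe set is annotated with a GenBank transcript record and the second with RefSeq transcripts.

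Mcl1, a short-lived protein that binds Bak1 and several BH3-only proteins, was at 12.03, 11.92 and 12.07 in unmated and 12.13, 11.97 and 12.07 in mated rats. Its groups overlapped, at a log2 fold change of 0.05 (-0.13 to 0.23). With 1 array left out it ran from 0.007, without unmated replicate 2, to 0.09, without mated replicate 2. The dimmer of its probe sets differed by 0.07 (-0.15 to 0.28).

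Both effectors had overlapping groups. Bax, whose protein moves from the cytosol to mitochondria on activation, was at 9.01, 8.99 and 8.95 in unmated and 8.94, 9.04 and 8.94 in mated rats, a log2 fold change of -0.01 (-0.16 to 0.14). Its second probe set differed by 0.01 (-0.15 to 0.17), so the probe sets stood on opposite sides of 0, each by less than the SDs of its groups. The kept probe set of Bax is annotated with a RefSeq transcript and the second is not. Bak1, which sits in the outer mitochondrial membrane, was at 8.68, 8.59 and 8.59 in unmated and 8.67, 8.42 and 8.63 in mated rats. Mated replicate 2 was the low value, the groups overlapped, and the log2 fold change was -0.05 (-0.24 to 0.15).

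Of the 5 BH3-only members 4 lay higher in mated rats and 1 lower, with a median log2 fold change of 0.08. Pmaip1 encodes Noxa, which binds Mcl1 and marks it for degradation. It was at 6.75, 6.95 and 7.02 in unmated and 7.12, 7.10 and 7.69 in mated rats. The groups did not overlap, by a gap of 0.08, and mated replicate 3 was 0.57 above the next mated value. The log2 fold change was 0.40 (0.03 to 0.77), and without mated replicate 3 it was 0.20. Its mean of 7.11 lay below 7.13, the 95th percentile of 1240 odorant and pheromone receptor genes that served as a guide to background, and the other 9 members lay above that limit. RMA compresses changes of dim probe sets.

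Bid links death receptors to mitochondria after cleavage by caspase 8. It was at 7.68, 7.77 and 7.72 in unmated and 7.96, 7.83 and 7.82 in mated rats. All mated values were above all unmated values, by a gap of 0.05, and the log2 fold change was 0.15 (-0.02 to 0.31). Bbc3, which encodes Puma, a potent trigger of apoptosis, was at 8.45, 8.41 and 8.51 in unmated and 8.44, 8.54 and 8.63 in mated rats. Its groups overlapped through mated replicate 1, at a log2 fold change of 0.08 (-0.09 to 0.25). It was 0.03 without mated replicate 3 and 0.13 without mated replicate 1.

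Bcl2l11 encodes Bim, which is induced by loss of growth factors and binds all the main antiapoptotic proteins. Its unmated values of 8.32, 8.31 and 8.32 were nearly equal, whereas the mated values were 8.42, 8.03 and 8.34. Mated replicate 2 was below and the other mated arrays were above the unmated group. The log2 fold change was -0.05 (-0.29 to 0.19), and without mated replicate 2 it was 0.06. Bad, whose protein is inactivated by survival kinases, was at 8.53, 8.64 and 8.62 in unmated and 8.69, 8.55 and 8.57 in mated rats. Its groups overlapped, and the log2 fold change was 0.007 (-0.16 to 0.17).

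**Figure D2:**
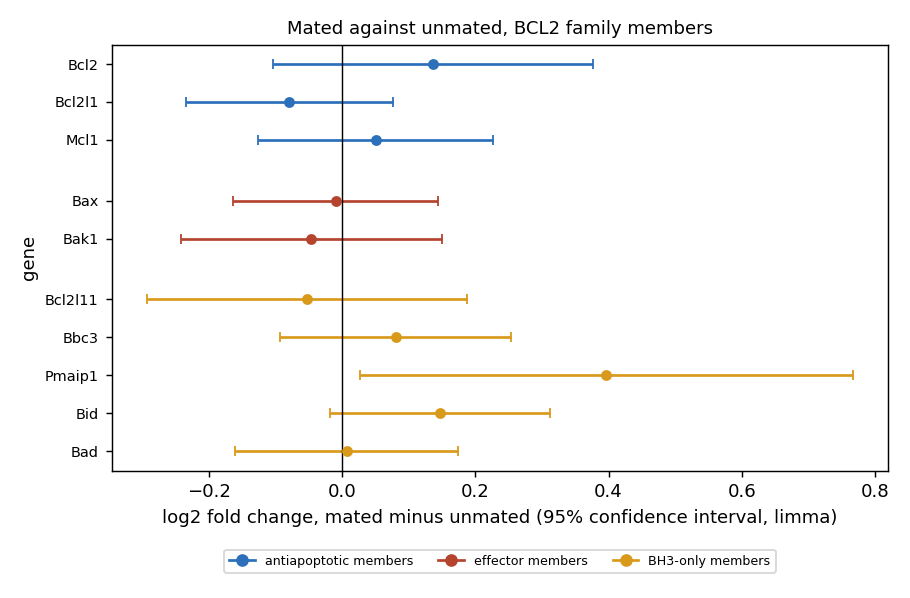
Log2 fold change of each member, mated minus unmated, as points with 95% confidence intervals from limma on 3 arrays per group, coloured by role. The interval of Pmaip1, from 0.03 to 0.77, is the one that leaves out 0, and no member passed after adjustment over all genes.

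Groups that do not overlap were thus found for 3 of 10 members, Pmaip1 and Bid higher and Bcl2l1 lower in mated rats. Over all 14506 genes 8.47% had such groups, 5.24% higher and 3.23% lower in mated rats. The gaps between the groups were 0.08, 0.05 and 0.02, and the values are given to 0.01. The separation was present for all 3 genes both after a second quantile normalization and with the arrays centred on their medians.

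Pro- and antiapoptotic members had overlapping ranges of fold change. Of the 7 proapoptotic members 4 lay higher and 3 lower in mated rats (5 and 2 after a second quantile normalization), with a median log2 fold change of 0.007 and a range from -0.05 to 0.40. Of the 3 antiapoptotic members 2 lay higher and 1 lower, with a median of 0.05 and a range from -0.08 to 0.14. Over all genes 53.3% lay higher in mated rats and the median was 0.01; after a second quantile normalization the share was 49.9%. The median absolute log2 fold change was 0.07 for the 10 members, the same as over all genes to 2 decimals.

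Taken array by array, the median shift of the proapoptotic members from their unmated means was 0.09, 0.06 and 0.02 on mated replicates 1, 2 and 3, and that of the antiapoptotic members was 0.12, -0.04 and 0.06. The difference between these medians was -0.03, 0.09 and -0.04 in mated animals, against -0.03, 0.04 and 0.03 in unmated animals. The mated arrays therefore fell on both sides of the unmated ones.

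Changes of single genes can be set against each other within an array. The change of Bax minus that of Bcl2, a common measure of the balance between death and survival, was -0.40, 0.09 and -0.14 in mated animals, against -0.04, 0.04 and -0.007 in unmated animals. The groups overlapped, since mated replicate 2 lay above and the other mated arrays below the unmated ones. Against Bcl2l1 in place of Bcl2 the mean difference was 0.07, with SDs of 0.07 in unmated and 0.06 in mated rats, and the groups overlapped. The change of Pmaip1 minus that of its binding partner Mcl1 averaged 0.35, with SDs of 0.16 and 0.33 and overlapping groups. The change of Bid minus that of Bcl2l1, a pair chosen after their values were seen, was 0.30, 0.19 and 0.19 in mated animals. In unmated animals it was -0.01, -0.03 and 0.04. Every mated array was already above the unmated ones for Bid and below them for Bcl2l1. This difference therefore had to set the groups apart, and it adds nothing to the values of the single genes.

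**Figure D3:**
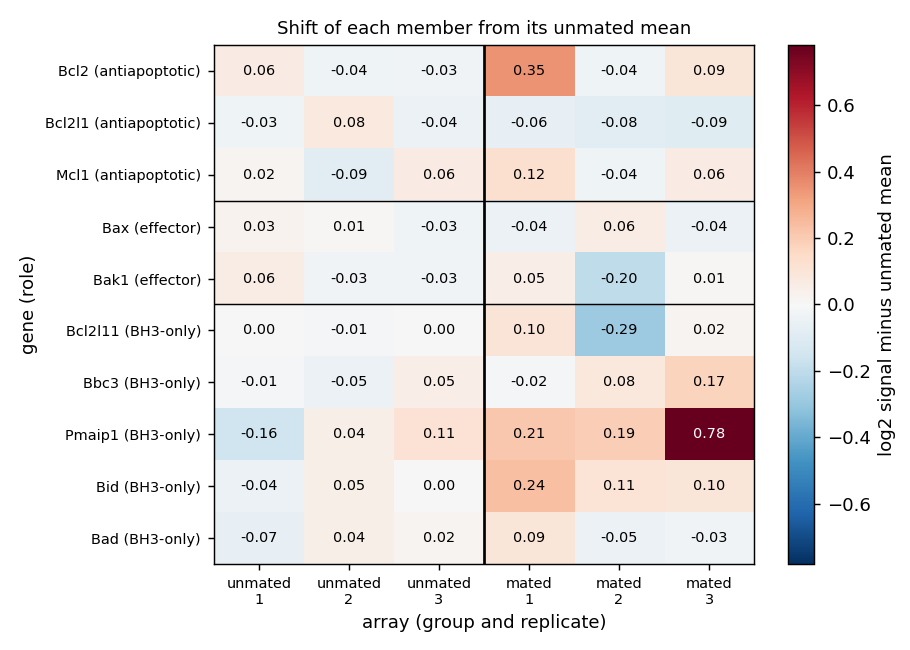
Log2 signal of each member (rows, ordered by role) on each array (columns) minus its mean over the 3 unmated arrays, with red above and blue below that mean. The strongest cells are Pmaip1 on mated replicate 3 (0.78), Bcl2 on mated replicate 1 (0.35) and Bcl2l11 on mated replicate 2 (-0.29), each on a different animal.

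For 9 of the 10 members the mated group had the larger SD, as had 56.7% of all genes. The SDs in mated against unmated rats were furthest apart for Bcl2 (0.20 against 0.06), Bcl2l11 (0.21 against 0.006), Bak1 (0.13 against 0.05) and Pmaip1 (0.34 against 0.14). Bcl2l1 was the exception, with an SD of 0.02 in mated and 0.07 in unmated rats. With 3 arrays per group these SDs are imprecise and their difference was not tested.

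The sequence before the start site is shown for the members that had the largest difference and the lowest fold change, Pmaip1 and Bcl2l1, which lie on opposite sides of the survival balance. Both are RefSeq sequences of the rat assembly GRCr8, written 5′ to 3′ in the direction of transcription, and end before the first annotated base of the gene. Capitals mark a GC box (GGGCGG on either strand), a binding motif of Sp1. The Pmaip1 window, chr18:62255720-62255969 on the plus strand, has a GC content of 64.8% and 1 GC box. The Bcl2l1 window, chr3:161764845-161765025 on the minus strand, has a GC content of 53.6% and holds no GC box.
Pmaip1: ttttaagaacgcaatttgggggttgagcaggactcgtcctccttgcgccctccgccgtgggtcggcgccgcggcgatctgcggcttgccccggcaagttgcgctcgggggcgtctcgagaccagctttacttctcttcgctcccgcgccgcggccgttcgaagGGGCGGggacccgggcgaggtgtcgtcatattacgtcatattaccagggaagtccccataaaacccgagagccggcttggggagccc
Bcl2l1: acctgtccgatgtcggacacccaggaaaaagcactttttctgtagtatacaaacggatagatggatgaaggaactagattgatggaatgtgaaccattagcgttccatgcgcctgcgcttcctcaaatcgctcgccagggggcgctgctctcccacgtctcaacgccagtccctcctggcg

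Windows from 250 bases before to 50 bases after the start were listed for 8 of the 10 members, and Bax and Bbc3 were not matched. Such a window holds a GC box in 33.1% of the 33469 listed rat promoters. Among the members, Mcl1, Bak1 and Pmaip1 have 1 each, Bcl2l11 has 2, Bid has 3 and 1 of the 4 alternative Bcl2l1 windows has 1. A CCAAT box (CCAAT, 37.5% of all windows) was found in Bcl2l11 and in some Bcl2l1 windows, and a TATA box (TATAAA, 14.2%) only in that of Bcl2, whose GC content is 32.7%. The cyclic AMP response element (TGACGTCA, 1.83%) was not found in these exact letters in the window of any of these 8 genes. Variants of the element were not searched. All motifs were searched on both strands, and a match or its absence describes the letters of the window alone.

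Other genes of the pathway were followed in the same fit, from lists of 49 genes of which 44 were measured. None passed the threshold (0 of 44 by limma), 26 lay higher and 18 lower in mated rats, and their median log2 fold change was 0.01. After a second quantile normalization 22 of the 44 lay higher. At an unadjusted p under 0.05 by limma there were 2 of the 44, Bcl2l15 and Aifm1, against 4.57% of all genes. The groups did not overlap for 4 of the 44 (9.09%), against 8.47% of all genes.

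Among 12 further BCL2 relatives 8 lay higher and 4 lower. Bcl2l15, a little-studied relative, was at 7.24, 7.49 and 7.45 in unmated and 7.74, 7.78 and 7.69 in mated rats. The groups were apart by 0.20, a wider gap than for any of the 10 members, and the log2 fold change was 0.34 (95% confidence interval 0.15 to 0.54; adjusted p = 0.984 by limma). Bnip3, a mitochondrial protein induced by low oxygen, differed by 0.22 (-0.11 to 0.55). On the lower side stood Bcl2l13, a mitochondrial relative, at -0.09 (-0.25 to 0.07) with groups 0.01 apart, and Bcl2l14 at -0.11 (-0.34 to 0.13).

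Of 10 measured genes of mitochondrial release and the caspases that follow, 2 lay higher and 8 lower in mated rats, at a median of -0.03. Aifm1, the flavoprotein of the intermembrane space that can move to the nucleus in cell death and serves the respiratory chain otherwise, was at 11.88, 11.96 and 11.75 in unmated and 11.57, 11.73 and 11.55 in mated rats. All mated values were below the unmated ones, by 0.02, and the log2 fold change was -0.25 (-0.44 to -0.05; adjusted p = 0.984 by limma). Vdac2, a porin of the outer membrane that holds Bak1, differed by -0.15 (-0.32 to 0.03). Endog and Cycs, which encodes cytochrome c, lay higher by 0.05 and 0.02. Casp9, the initiator caspase of this route, named after its values were seen, was the fourth of the 44 genes whose groups were apart, lower by 0.07 with a gap of 0.01. Under either other scaling its groups overlapped.

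Inhibitors of apoptosis were within their errors. Of 4 measured genes 3 lay higher, with Birc5 at 0.08 (-0.12 to 0.28) and Birc2 at 0.02 (-0.27 to 0.30). Xiap, the direct inhibitor of caspases, differed by -0.04 (-0.20 to 0.11). The mean signal of Birc5, 7.12, lay below the limit of 7.13 used as a guide to background. Of 10 genes of death receptor signalling 7 lay higher and 3 lower, at a median of 0.05. The receptor gene Fas differed by 0.26 (-0.15 to 0.68) and its mated values ran from 7.08 to 7.71, overlapping the unmated range of 6.92 to 7.38. The adaptor gene Tradd differed by 0.14 (-0.13 to 0.41), the receptor gene Tnfrsf1a by -0.12 (-0.31 to 0.08) and Casp8, whose protein cleaves Bid, by -0.09 (-0.26 to 0.09).

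A list of transcription factors that act on the members and of related stress response genes gave 6 higher and 2 lower of 8 measured genes, at a median of 0.09. Cdkn1a, an inhibitor of the cell cycle, differed by 0.19 (-0.08 to 0.46), and Ddit3, the stress factor CHOP, by 0.14 (-0.09 to 0.37). Tp73, a transcription factor that can induce Bbc3, differed by -0.06 (-0.25 to 0.12) and Foxo3, an activator of Bcl2l11 and Bbc3, by -0.03 (-0.23 to 0.18). Intervals of all 8 genes included 0.

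**Figure D4:**
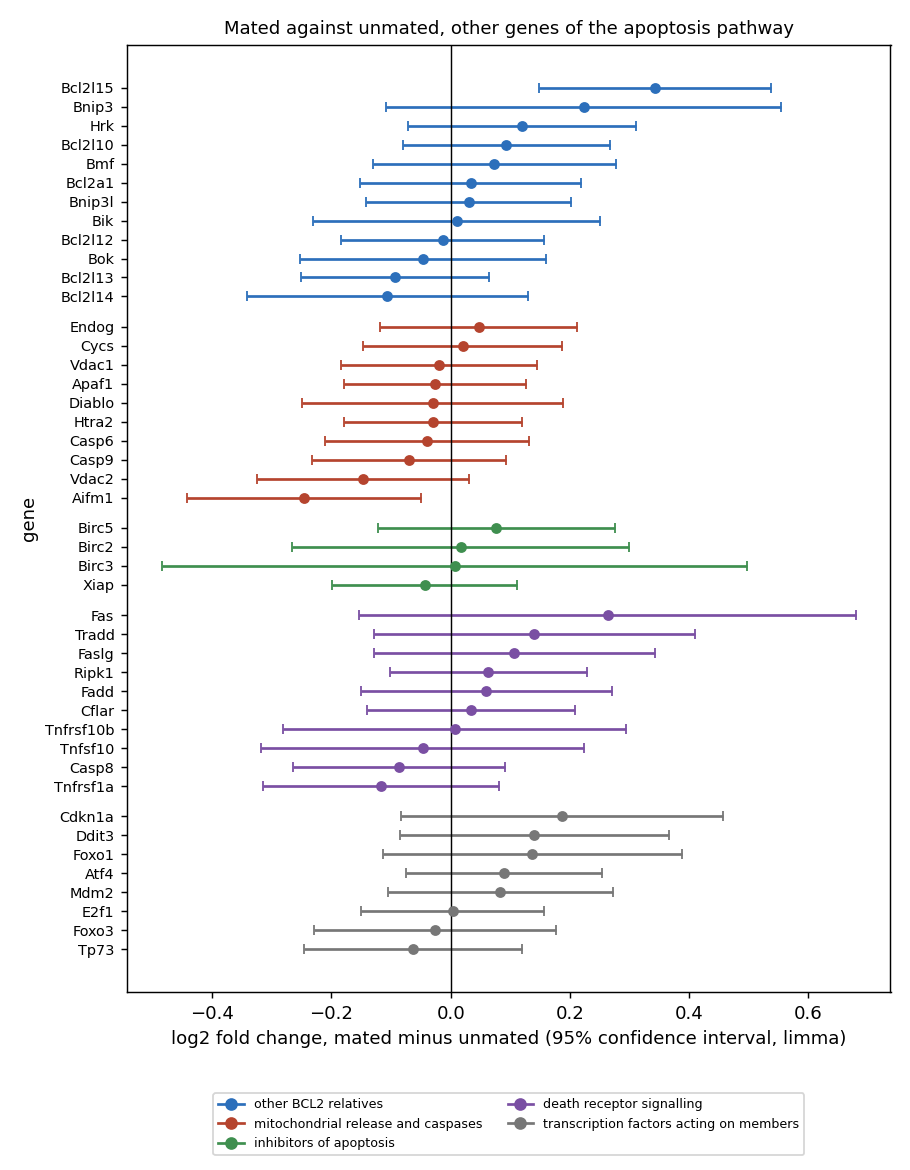
Log2 fold change, mated minus unmated, with 95% confidence intervals from limma (3 arrays per group) for 44 other genes of the pathway, sorted within each list. Bcl2l15 at 0.34 and Aifm1 at -0.25 have intervals that leave out 0, and no gene passed after adjustment over all genes.

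The arrays were alike in general signal, with a median log2 signal over all probe sets from 7.89 to 7.94, and no pair of arrays held the same values. All 4 markers of simple epithelium, the labelled lining's main cell class, were above the receptor limit, while all 5 neutrophil markers lay below it in both groups. The summed level of the 4 endothelial markers was 9.42 to 9.51 in unmated and 9.57 to 9.62 in mated rats. This was the one of 10 marker lists whose groups did not overlap. Among its genes Tie1 differed by 0.33 with groups apart, whereas Pecam1, Cdh5 and Kdr differed by 0.01, 0.05 and -0.12 with overlapping groups. Summed fibroblast markers were 10.43 to 10.71 in unmated and 10.32 to 10.58 in mated rats, and macrophage markers 10.96 to 11.25 and 10.80 to 11.02. Each of the 6 fibroblast markers lay lower in mated rats, but Col1a1 and Col3a1 differed by only -0.02 and -0.007. Lum was below the receptor limit. Dpt, the only fibroblast marker with groups apart, differed by -0.46 (adjusted p = 0.984 by limma). The 2 measured erythroid markers summed to 9.66 to 9.82 in unmated and 9.69 to 10.33 in mated rats, the largest mean difference of the 10 lists (0.30). Hbb, the haemoglobin beta gene, was at 9.60, 9.47 and 9.43 in unmated and 9.48, 9.86 and 10.15 in mated rats, highest on mated replicate 3, where Pmaip1 was also highest. The part of these cell types in the values of Pmaip1 and Bid was not tested. In whole tissue, fewer cells of a type and less RNA per cell cannot be told apart.

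**Figure D5:**
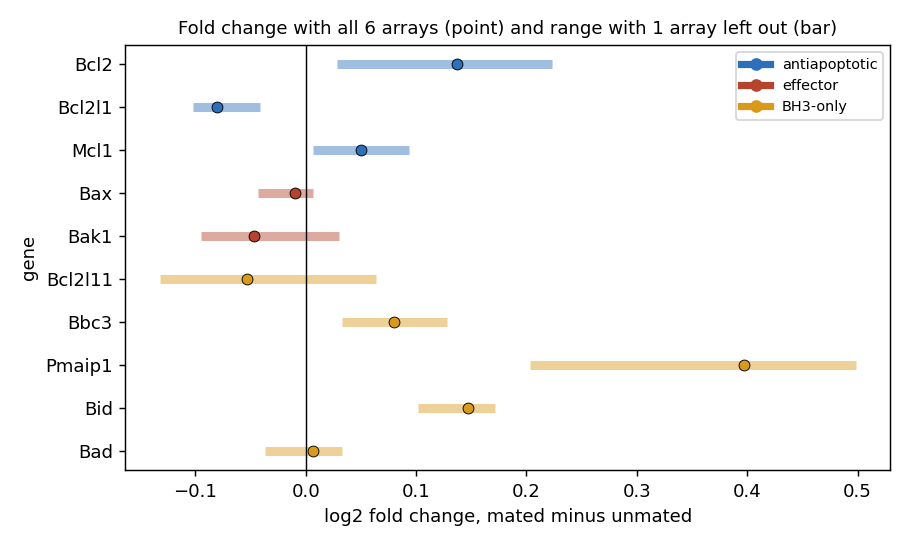
Log2 fold change of each member with all 6 arrays (point) and the range over 6 fits that each leave out 1 array (bar), coloured by role. The bars of Bax, Bak1, Bcl2l11 and Bad cross 0, and that of Pmaip1 runs from 0.20 to 0.50.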

How the data were processed

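Endosalpinx RNA of 3 mated and 3 unmated rats was labelled from 0.3 µg of total RNA and hybridised to 1 Affymetrix array per animal, per the labels. The values deposited are log2 signals by RMA in Affymetrix Expression Console, per the submitters' processing notes, with no versions given. RMA equalises the distributions of the arrays and can hide a shift of most genes. Of 29214 probe sets 15310 carried exactly 1 symbol, and the probe set of highest mean per gene left 14506 genes. The 10 members had 13 probe sets. All genes were fitted with limma 3.58.1 in R 4.3.3 (lmFit and eBayes, 2-sided, no block), with Benjamini-Hochberg adjustment over all genes and a threshold of 0.05. The fit was tested on simulated data. The number of arrays limits the precision. Labels name biological replicates, 1 animal each.

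Members and lists were chosen with earlier results of these data known. Genes named beside the members are, in each list, the 2 of smallest p in each direction; Casp9 was named outside this rule, after its values were seen. Same-numbered arrays of the groups did not deviate together (0 of 3 correlations above 0.1). With 3 arrays per group these correlations cannot settle whether replicate numbers pair animals. Alternatives were array weights, the replicate block, robust fitting, a variance trend with intensity, another quantile normalization, median centring, removal of the dimmest 25% or 50% of genes, the mean of a gene's probe sets, all probe sets, and each array left out.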

Additional observations from a re-analysis of the deposited data

How the results depend on the processing

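No member passed the threshold by limma under any of the 16 alternatives, and neither did any other gene tested. The fit with the replicate number as a block (replicate block) also called 0 of 10. Its check gave correlations of 0.004, -0.08 and 0.07 between same-numbered arrays, none of which correlated best with its own number. The direction held under every alternative run for 6 members (Bcl2, Bcl2l1, Mcl1, Bbc3, Pmaip1 and Bid). Of these, Bcl2, Bbc3, Pmaip1 and Bid, like Bcl2l11, could not be fitted with the dimmest 50% of genes left out. The replicate block, the intensity trend, robust fitting, removal of dim genes and use of all probe sets cannot alter a gene's fold change. These alternatives could not turn a direction, nor could the mean of probe sets for genes with 1 probe set. Bad turned to -0.0139 with array weights, and Bax to 0.0061 after a second quantile normalization and to 0 with the mean of its probe sets. With 1 array left out at a time, Bad ran from -0.0367 to 0.0333, Bax from -0.0433 to 0.0067, Bak1 from -0.095 to 0.030 and Bcl2l11 from -0.132 to 0.0633; the last 2 turned without mated replicate 2. The median of the proapoptotic members ran from 0.0033 to 0.0633 over the same fits, with the highest value without mated replicate 2; array weights gave -0.007, and removal of the dimmest 50% of genes -0.010. The median of the antiapoptotic members ran from 0.007 to 0.09, and was -0.015 with the dimmest 50% left out, where Bcl2l1 and Mcl1 alone remained. Pmaip1 was under an unadjusted p of 0.05 by limma in 11 of 15 alternatives, but not without unmated replicate 1 or 2, without mated replicate 3 or after a second quantile normalization. Its adjusted p ranged from 0.506 to 1. Its mean lay within the receptor range, so this value rests on a signal near background.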
